A study of Mus musculus with 9 samples.

Results

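The genes described here are 8 genes of the oligodendrocyte lineage and its precursors, Pdgfra, Cspg4, Olig1, Olig2, Sox10, Gpr17, Lhfpl3 and C1ql1, taken by name from the 37620 gene identifiers counted. All 8 were among the 15069 genes tested, which had at least 1 CPM in at least 1 sample. For that filter CPM was a count scaled to the plain total of its sample, and for levels the total was TMM-adjusted. The RNA was ribosome-associated RNA from CA3/CA2 of PV-Cre; Rpl22HA/HA mice, where Cre under the parvalbumin driver switches on a tagged ribosome subunit (Rpl22 with HA), so that the HA pulldown is aimed at RNA of PV INs. Mice that were 2 months old received lentivirus in DG with a non-target shRNA (shNT, 5 samples) or an shRNA against Ablim3 (shRNA, 4 samples), and CA2/CA3 was collected 2 weeks later. Each sample pooled 6 mice of both sexes, and the comparison asks what differs in the PV IN pulldown when mossy fiber inputs onto PV INs are increased. No input RNA was used here, so the values are levels in the pulldown, and RNA of tagged ribosomes cannot be told apart from RNA of other cells that was carried along. For the same reason more cells of a type and more RNA per cell cannot be told apart.

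Oligodendrocyte precursors are the dividing glia of the adult brain that give rise to myelinating oligodendrocytes. They carry the PDGF receptor alpha and the NG2 proteoglycan on their surface, respond to PDGF-A from neurons and astrocytes, and depend on the transcription factors Olig2 and Sox10. Gpr17 marks the committed precursors that are leaving this state, and in the hippocampus precursors lie among the neurons of every layer and receive synapses from them.

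The members together made up between 81.1 and 113 CPM in the shNT samples and between 123 and 157 CPM in the shRNA samples, so the sums of the groups did not overlap. The markers of the tagged cells were far more abundant: 11 PV IN markers summed to between 4950 and 8121 CPM with shNT and between 2941 and 7137 CPM with the shRNA. Errors given with ± are SD over the samples of a group. Pdgfra, Olig2 and Gpr17 rose in the shRNA samples, by 1.95-fold to 2.50-fold. Cspg4, Sox10 and Olig1 had folds of 2.02, 1.89 and 1.54 without passing the test, and Lhfpl3 and C1ql1 had lower means with the shRNA. Thus 3 of the 8 were called higher and 0 lower by edgeR, which here means a Benjamini-Hochberg FDR under 0.05 over the whole table together with a change of at least 1.5-fold. The same call was made for 1.74% of all genes tested in the higher direction, 0.0133% in the lower and 1.75% in either. Unadjusted p was under 0.05 in 6 of the 8, against 34.1% of all genes tested, and 6 of the 8 had a positive log2 fold change, against 57.9%. The median log2 fold change of the 8 was 0.94, and that of all genes tested was 0.11. In 5 members the lowest shRNA sample exceeded the highest shNT sample, as in 8.97% of all genes tested, and in 0 members did every one lie below, as in 6.68%.

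**Figure D1:**
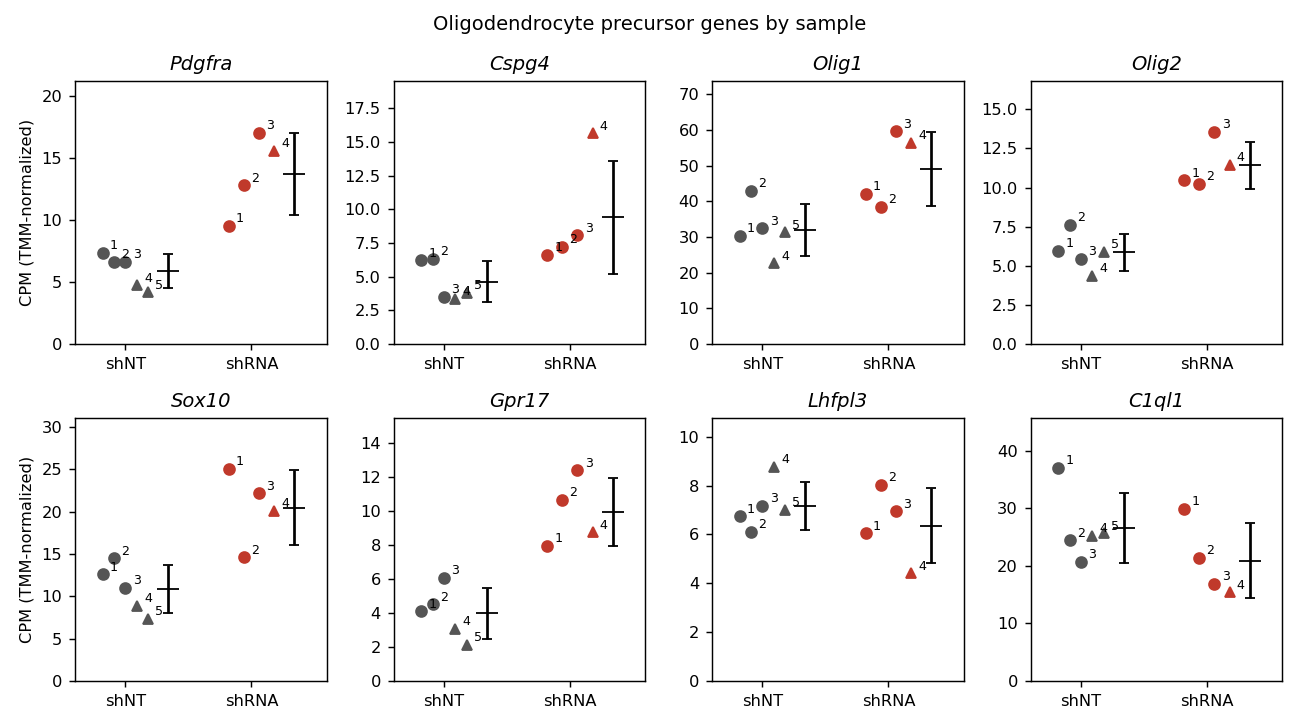
Level of each gene (vertical axis, CPM with TMM normalization, from 0) in the 5 shNT and 4 shRNA samples. Each point is 1 sample with its replicate number, circles and triangles mark sample names with 31 and 32, and the bars give mean ± SD. The groups are separate in Pdgfra, Cspg4, Olig2, Sox10 and Gpr17 and overlap in Olig1, Lhfpl3 and C1ql1.

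Gene counts per sample ran from 19680352 to 34578837 with shNT and from 18281719 to 30421093 with the shRNA, and the members had between 61 and 1269 counts in any sample. Nothing in the labels says more of how the pools were made, so the p-values measure the spread between these pools. Ablim3, whose shRNA was delivered to DG and not to the cells pulled down, had 16.9 ± 5.16 CPM (n = 5) and 18.5 ± 3.42 CPM (n = 4) and did not pass (edgeR FDR 0.701). In each group 1 sample was the highest by the share of uniquely aligned reads outside annotated exons: shNT replicate 2 (18.6%, others at most 11.3%) and shRNA replicate 4 (27.2%, others at most 19.8%). The sample names carry the number 31 in 6 samples (set 31) and 32 in the other 3 (set 32), and what these sets are is not stated in the sources used here.

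Precursors are recognized by the receptors on their surface. Pdgfra (ENSMUSG00000029231, mm9 chromosome 5 from 75548316 to 75594229) encodes the receptor through which PDGF-A keeps precursors dividing. Its level was 7.35, 6.65, 6.65, 4.74 and 4.20 CPM with shNT (replicates 1 to 5, the order kept throughout) and 9.56, 12.8, 17.0 and 15.6 CPM with the shRNA (replicates 1 to 4). The lowest shRNA sample was above the highest shNT sample, and shNT replicates 4 and 5 were the lowest of all. The means were 5.92 ± 1.37 CPM (n = 5) and 13.7 ± 3.29 CPM (n = 4), a log2 fold change of 1.21 (SE 0.23) at an FDR of 0.0403 in edgeR. Cspg4 (ENSMUSG00000032911, chromosome 9 from 56712911 to 56747677) encodes NG2, the proteoglycan by which precursors are commonly stained and which pericytes also carry. It had 6.22, 6.33, 3.53, 3.38 and 3.79 CPM with shNT and 6.64, 7.24, 8.06 and 15.6 CPM with the shRNA. The groups did not overlap, yet shNT replicates 1 and 2 lay just under the lowest shRNA sample and shRNA replicate 4 lay far above the rest. Its log2 fold change was 1.01 (SE 0.31) at an FDR of 0.0688 in edgeR, and without shRNA replicate 4 it was 0.63 (edgeR FDR 0.173). In shRNA replicate 4 the 10 pericyte and smooth muscle markers summed to 286 CPM, against at most 58.5 CPM in the other shRNA samples and between 41.2 and 172 CPM in the shNT samples, and the part of these cells in Cspg4 was not tested.

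Sequences of 4 of the members were taken from the RefSeq promoter table (GRCm38.p6), and Gpr17 was not looked up in it. The 250 bases before the annotated start are shown for Pdgfra and Olig2, which rose, for Cspg4, whose groups did not overlap, and for Lhfpl3, which did not move with them. They lie at chr5:75152001-75152250, chr16:91225300-91225549, chr9:56864854-56865103 and chr5:22745804-22746053, all on the plus strand and in a build other than mm9, which the counts use. Capitals mark the E-box CANNTG, the kind of site that Olig1, Olig2 and other basic helix-loop-helix factors bind, and the Sox-type sites ACAAAG and ACAATG, on either strand:
Pdgfra: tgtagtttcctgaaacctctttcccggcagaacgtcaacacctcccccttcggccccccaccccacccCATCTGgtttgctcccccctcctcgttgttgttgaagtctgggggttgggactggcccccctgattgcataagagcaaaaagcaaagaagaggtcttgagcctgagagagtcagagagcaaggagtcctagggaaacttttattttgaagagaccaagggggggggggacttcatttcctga
Cspg4: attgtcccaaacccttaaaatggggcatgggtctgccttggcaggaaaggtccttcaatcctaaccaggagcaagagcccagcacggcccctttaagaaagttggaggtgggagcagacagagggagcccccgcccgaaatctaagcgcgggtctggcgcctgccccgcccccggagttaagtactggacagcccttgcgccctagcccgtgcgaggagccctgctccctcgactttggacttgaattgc
Olig2: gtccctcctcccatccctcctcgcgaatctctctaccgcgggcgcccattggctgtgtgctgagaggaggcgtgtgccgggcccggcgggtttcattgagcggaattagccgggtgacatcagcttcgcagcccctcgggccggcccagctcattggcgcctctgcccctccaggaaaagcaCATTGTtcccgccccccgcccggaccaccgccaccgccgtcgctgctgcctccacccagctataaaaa
Lhfpl3: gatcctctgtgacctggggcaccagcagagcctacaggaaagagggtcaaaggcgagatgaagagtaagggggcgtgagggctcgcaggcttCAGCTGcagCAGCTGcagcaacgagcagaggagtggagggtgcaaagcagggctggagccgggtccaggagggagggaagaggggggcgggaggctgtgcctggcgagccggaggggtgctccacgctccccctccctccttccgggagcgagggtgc
Pdgfra held 1 E-box and Lhfpl3 held 2, Olig2 held 1 ACAATG on the minus strand, and Cspg4 held none of these letters in this window. Of 32851 promoter windows of the same length, 66.2% held CANNTG, 16.5% ACAAAG and 10.7% ACAATG. The matches describe the sequence only, and no binding was measured.

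Gpr17 (ENSMUSG00000052229, chromosome 18 from 32102651 to 32109290) encodes a G protein-coupled receptor of committed precursors that holds back their maturation. It had 4.09, 4.49, 6.07, 3.07 and 2.13 CPM with shNT and 7.94, 10.7, 12.4 and 8.74 CPM with the shRNA. The groups did not meet, and the mean went from 3.97 ± 1.49 CPM (n = 5) to 9.93 ± 1.99 CPM (n = 4). The log2 fold change, 1.32 (SE 0.29), was the highest of the 8 and had an FDR of 0.0456 in edgeR. Exons of Lims2 overlap 3.62% of the Gpr17 exons, and reads there cannot be told apart. Reads that were assigned to no single gene were left out of the counts.

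The transcription factors of the lineage were higher in mean in the shRNA samples as well. Olig2 (ENSMUSG00000039830, chromosome 16 from 91225795 to 91228922) is the basic helix-loop-helix factor without which precursors do not form. It had 5.97, 7.61, 5.45, 4.38 and 5.89 CPM with shNT and 10.5, 10.2, 13.5 and 11.4 CPM with the shRNA. The groups were separated by a wide gap beside their spread, with means of 5.86 ± 1.17 CPM (n = 5) and 11.4 ± 1.51 CPM (n = 4). Its log2 fold change was 0.96 (SE 0.19) at an FDR of 0.0411 in edgeR. Olig1 (ENSMUSG00000046160, chromosome 16 from 91270014 to 91272184) is the related factor encoded beside Olig2 and is kept in oligodendrocytes. It had 30.3, 43.0, 32.4, 22.7 and 31.3 CPM with shNT and 42.1, 38.5, 59.6 and 56.4 CPM with the shRNA. The groups overlapped because shNT replicate 2 was above shRNA replicates 1 and 2, and the log2 fold change of 0.62 (SE 0.20) did not pass (edgeR FDR 0.0714). Sox10 (ENSMUSG00000033006, chromosome 15 from 78985343 to 78994920) is present through the whole lineage and switches on myelin genes. It had 12.6, 14.5, 11.0, 8.87 and 7.33 CPM with shNT and 25.04, 14.6, 22.2 and 20.1 CPM with the shRNA. The groups did not overlap, but shRNA replicate 2 was only just above shNT replicate 2, and the log2 fold change of 0.92 (SE 0.22) had an FDR of 0.0547, just short of the threshold (edgeR).

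Lhfpl3 and C1ql1 did not share this pattern. Lhfpl3 (ENSMUSG00000058361, chromosome 5 from 22252011 to 22618785) encodes a tetraspan membrane protein that is a marker of precursors in single-cell surveys. It had 6.75, 6.10, 7.16, 8.77 and 7.02 CPM with shNT and 6.04, 8.02, 6.96 and 4.42 CPM with the shRNA. The lowest sample was shRNA replicate 4 and the highest shNT replicate 4, with the rest intermingled, and the log2 fold change was -0.17 (SE 0.21) at an FDR of 0.575 in edgeR. C1ql1 (ENSMUSG00000045532, chromosome 11 from 102800578 to 102808002) encodes a secreted C1q-like protein that organizes synapses and that neurons make as well as precursors. It had 36.95, 24.4, 20.7, 25.2 and 25.6 CPM with shNT and 29.9, 21.3, 16.9 and 15.4 CPM with the shRNA. Replicate 1 was the highest of each group and the groups overlapped, with a log2 fold change of -0.35 (SE 0.23) at an FDR of 0.285 in edgeR. An exact permutation test for each member, two-sided and on log2 levels, gave a p of 0.00794 for Pdgfra and Olig2, 0.0159 for Gpr17 and Sox10, 0.0238 for Cspg4, 0.0317 for Olig1, 0.167 for C1ql1 and 0.341 for Lhfpl3. The smallest p that 5 against 4 samples allow is 0.00794.

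**Figure D2:**
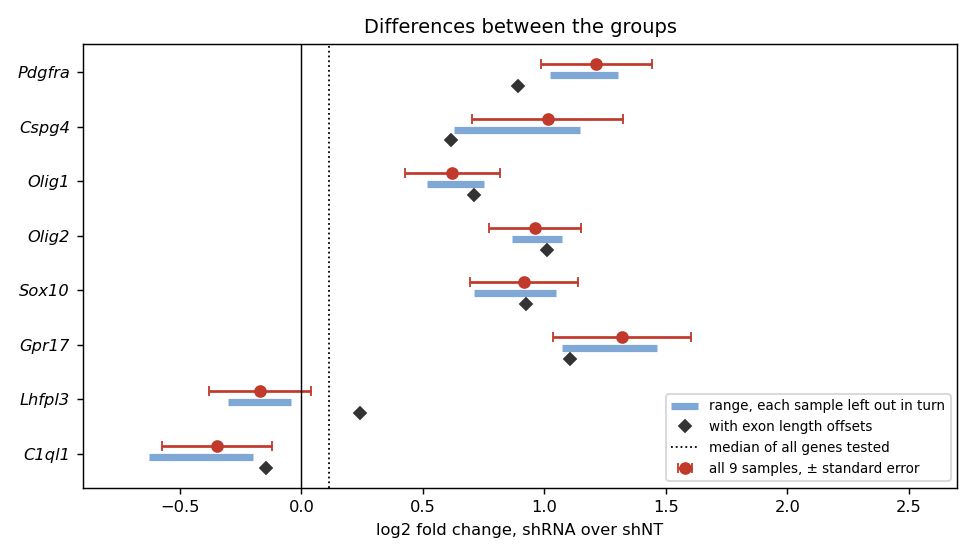
Log2 fold change of each gene, shRNA over shNT (horizontal axis). Red points give the fit of all 9 samples with its standard error, blue bars the range when each sample is left out in turn, diamonds the fit with exon length offsets, and the dotted line the median of all genes tested (0.11). Pdgfra, Cspg4, Olig1, Olig2, Sox10 and Gpr17 lie right of 0 in all of them, C1ql1 lies left of 0, and Lhfpl3 changes side with the length offsets (0.24).

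The calls of the members and of the whole table changed when single samples were dropped. Over the 9 such fits, from 0 to 4 members were called. The count was 0 when the dropped sample was replicate 3, 4 or 5 of shNT, or replicate 1, 3 or 4 of the shRNA. In each of these fits 6 or 7 members had an unadjusted p under 0.05 (edgeR), as had between 3473 of 15059 and 4625 of 15064 genes tested. In 5 of these 6 fits 0 of all genes tested were called, and without shRNA replicate 4 the share called higher was 0.978%. Over those 9 fits Pdgfra ran from 1.02 to 1.30 in log2 fold change, Olig2 from 0.87 to 1.07 and Gpr17 from 1.07 to 1.46. DESeq2 called 5 members higher and 10.1% of all genes tested, and edgeR's likelihood ratio test 6 and 11.2%. For limma voom, run with quality weights for the samples, these were 6 and 15.3%. With the sample of each group highest in reads outside exons left out (chosen after seeing the data), 4 members were called higher (Pdgfra, Olig2, Sox10 and Gpr17), as were 4.75% of all genes tested. In the samples kept, that share ran from 9.76% to 11.3% with shNT and from 12.4% to 19.8% with the shRNA. It thus still differed between the groups without overlap, and its part in these calls was not tested.

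The differences were also read within each set of sample names. Among the 3 shNT and 3 shRNA samples of set 31 the median log2 fold change of the 8 was 0.54, 0 members were called and 4 had an unadjusted p under 0.05, where 0% of all genes tested in that set were called higher and 10.3% had such a p (edgeR). The groups of this set did not overlap in Pdgfra, Cspg4, Olig2, Sox10 and Gpr17, and all shRNA samples were above all shNT samples in 11.4% of all genes tested. In this set mean Pdgfra was 6.88 CPM with shNT and 13.1 CPM with the shRNA (1.91-fold), mean Olig2 6.34 and 11.4 CPM (1.80-fold), and mean Gpr17 4.88 and 10.3 CPM (2.11-fold). In set 32, where the only shRNA sample is replicate 4 beside 2 shNT samples and no test was made, the ratios were 3.49 for Pdgfra, 2.23 for Olig2 and 3.36 for Gpr17. The ratios of Cspg4 were furthest apart, a difference that was not tested, with values of 1.37 in set 31 and 4.36 in set 32. With the set as a block 4 members were called higher, as were 2.5% of all genes tested.

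Levels of different genes can be compared only per length of their exons. In the shNT samples C1ql1 was the most abundant member per length (18.04 ± 4.15 CPM per kb of annotated exon, SD, n = 5), followed by Olig1 (14.7 ± 3.34) and Lhfpl3 (10.04 ± 1.39). Sox10 (4.00 ± 1.052 CPM per kb) and Olig2 (2.41 ± 0.478 CPM per kb) were intermediate, and Pdgfra (0.878 ± 0.203 CPM per kb), Gpr17 (0.764 ± 0.287 CPM per kb) and Cspg4 (0.578 ± 0.185 CPM per kb) were lowest. In the shNT samples the ranges of neighbours in this order overlapped except between Lhfpl3 and Sox10 and between Olig2 and Pdgfra. Thus Pdgfra and Cspg4, whose products mark the surface of precursors, were among the least abundant per length, while C1ql1 was some way above them. With the shRNA the order was the same but for Olig1, which came first at 22.6 ± 4.78 CPM per kb (SD, n = 4), ahead of C1ql1 at 14.2 ± 4.44 CPM per kb, with overlapping ranges. The annotated exons of Lhfpl3 span 0.713 kb, the shortest of the 8, and reads outside them were not counted.

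**Figure D3:**
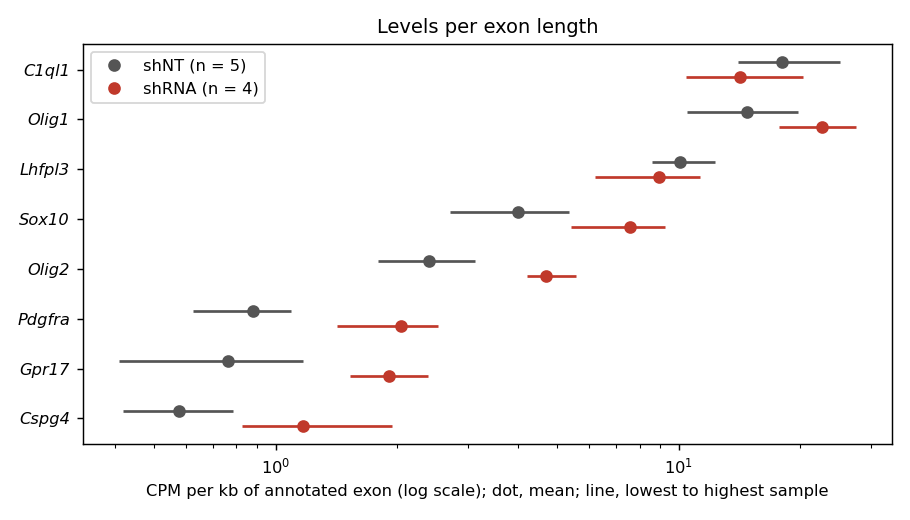
Level of each gene per kb of annotated exon (horizontal axis, CPM per kb, log scale) in the 5 shNT samples (grey) and the 4 shRNA samples (red). Dots are means and lines run from the lowest to the highest sample. C1ql1, Olig1 and Lhfpl3 lie above the other 5 in the shNT samples, and Cspg4 is lowest in both groups.

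Across the 9 samples the log2 levels of the 6 members with a positive log2 fold change moved together. The 15 pairs among them had Pearson's r between 0.67 and 0.943, highest for Pdgfra with Gpr17 and lowest for Cspg4 with Gpr17. The neighbouring genes Olig1 and Olig2 had r = 0.931. Pairs of one of these 6 with Lhfpl3 or C1ql1 had r between -0.767 and -0.278, and Lhfpl3 with C1ql1 had r = 0.32. These values describe 9 samples that share the difference between the groups and the set of names, and the 6 were grouped after their values were seen. By mean centred log2 level of all 8 genes the samples ran from -0.557 in shNT replicate 5 to 0.525 in shRNA replicate 3, with all shRNA samples above all shNT samples. The 10 genes most like that mean among 10933 candidates averaging at least 5 CPM were Dock10, Tro, Nup205, Plekhg3, Herc1, Scn2a1, Dock9, Mast4, Dmxl2 and BC018507, with r between 0.982 and 0.988 over the 9 samples. None of these 10 is on any of the cell type lists used here.

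Exon length moved with the differences between the groups. Over all genes tested, in 5 classes of about equal size by annotated exon length, the median log2 fold change went from -0.32 in the shortest class (up to 1.98 kb) to 0.45 in the longest (from 6.16 kb). Lhfpl3 (0.713 kb) and C1ql1 (1.473 kb) lie in the shortest class, Olig1, Olig2 and Sox10 (2.171 to 2.713 kb) in the second, Gpr17 (5.195 kb) in the fourth, and Pdgfra (6.737 kb) and Cspg4 (8.05 kb) in the longest. When a trend of each sample with exon length was offset (chosen after seeing the data), the log2 fold changes were 0.89 for Pdgfra, 1.10 for Gpr17, 1.01 for Olig2, 0.93 for Sox10, 0.71 for Olig1 and 0.62 for Cspg4. Lhfpl3 then had 0.24 and C1ql1 -0.14. In that fit 0 members were called, the lowest FDR being 0.0854 for Pdgfra and Olig2 (edgeR), and 0 of all genes tested were called. There 6 members had an unadjusted p under 0.05 (edgeR), as had 4306 of 15047 genes tested.

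**Figure D4:**
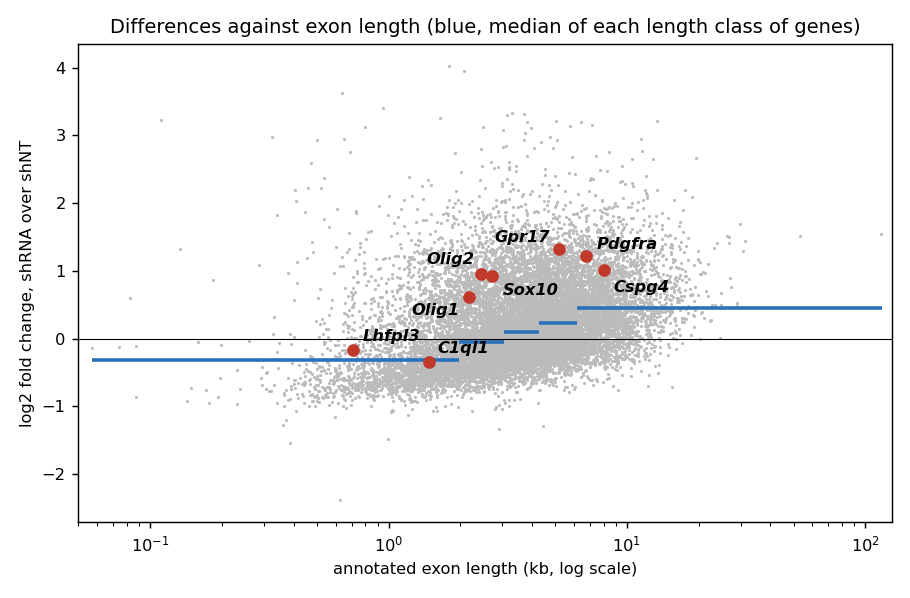
Log2 fold change, shRNA over shNT (vertical axis), against annotated exon length (horizontal axis, kb, log scale) for the genes tested (grey) and the 8 members (red). Blue lines give the median of each length class, from -0.32 to 0.45. Lhfpl3 and C1ql1 lie near the median of the shortest class, and the other 6 lie above the median of theirs.

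Other genes of the lineage were read from fixed lists. Of 20 further precursor markers, 2 were called higher and 0 lower, 17 had a positive log2 fold change, and their median was 0.72. The called genes were Neu4, a sialidase of precursors, which rose from 2.10 ± 0.761 CPM (n = 5) to 5.95 ± 1.71 CPM (n = 4) (edgeR FDR 0.0433), and Epn2, an endocytic adaptor that neurons use too, which rose from 39.6 ± 6.37 CPM (n = 5) to 66.1 ± 7.93 CPM (n = 4) (edgeR FDR 0.0424). Ptprz1, a receptor phosphatase of precursors and astrocytes, had a log2 fold change of 1.503 and an FDR of 0.0502 (edgeR), and Chst2 and Tnr, the other abundant genes of the list, had 316 and 21.0 CPM with shNT and log2 fold changes of -0.03 and 0.70. Among 17 genes of committed precursors and newly formed oligodendrocytes 0 were called and 7 had an unadjusted p under 0.05 (edgeR), each of the 17 was positive, and the median was 0.71. The most abundant of these, Fyn, Nfasc and Bcas1, had log2 fold changes of 0.06, 0.19 and 0.61, and the first pair is well known from neurons. Of 20 transcription regulators of the lineage 1 was called higher: St18, a zinc finger factor of the lineage, which rose from 8.76 ± 2.45 CPM (n = 5) to 22.9 ± 3.37 CPM (n = 4) (edgeR FDR 0.0403). Of these 20, 19 had a positive log2 fold change, with a median of 0.89, and the most abundant, Zfp536, Zeb2 and Nfix, had -0.01, 0.56 and 0.81. Over 16 myelin and mature oligodendrocyte genes all log2 fold changes were positive with a median of 0.75, and Gpr37, a receptor of myelinating cells, was called, with 12.4 ± 2.42 CPM (n = 5) and 25.6 ± 6.79 CPM (n = 4) (edgeR FDR 0.0414). Mbp and Mobp, abundant genes of the myelin sheath, had 692 and 168 CPM with shNT and log2 fold changes of 0.71 and 0.95 without passing. Levels of these lists were highest in shRNA replicate 4: the regulators, for example, summed to 1341 CPM there and to at most 756 CPM in the other shRNA samples. Without that sample the medians were 0.44 for the further precursor markers (15 of 20 positive), 0.34 for the committed cells (13 of 16), 0.42 for the regulators (17 of 20) and 0.62 for myelin (16 of 16), against 0.76 for the 8 members, and of the genes called on these lists 1, St18, was still called (edgeR).

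The ligands that act on Pdgfra and the relatives of C1ql1 were not called. Pdgfa, a ligand of Pdgfra, was at 55.3 ± 10.1 CPM (n = 5) with shNT and 39.4 ± 5.49 CPM (n = 4) with the shRNA. Its log2 fold change of -0.49 (edgeR FDR 0.0788) was opposite in sign to that of Pdgfra, though 26.1% of its exons overlap another gene. Pdgfc, another of these ligands, had 0.78 (edgeR FDR 0.0922), with all shRNA samples above all shNT samples, as in 8.97% of all genes tested. Pdgfrb, the receptor of pericytes, and Pdgfb had log2 fold changes of 1.15 and 0.35. Of the 5 PDGF genes other than Pdgfra 4 were positive, with a median of 0.78, and 2 had an unadjusted p under 0.05 (edgeR). Of 4 C1q-like genes 3 were tested, all with a positive log2 fold change (median 0.62): C1ql3 had 1.09 (edgeR FDR 0.0630), Adgrb3, the receptor of C1q-like proteins, had 0.62 (edgeR FDR 0.0630), and C1ql2 had 0.44 (edgeR FDR 0.260). C1ql1 itself had the opposite sign. Without shRNA replicate 4 the median was 0.08 for the PDGF genes and 0.61 for the C1q-like genes.

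Markers of other cells moved between the samples as well. All 12 astrocyte markers were positive (median 1.38), 10 had an unadjusted p under 0.05 and 0 were called (edgeR), but their sum in shRNA replicate 4 was 6243 CPM, against at most 1863 CPM in the other shRNA samples. In that sample Pdgfra, Olig1, Olig2, Sox10 and Gpr17 were within the range of the other shRNA samples, Cspg4 was above it, and Lhfpl3 and C1ql1 were below it. Endothelial markers summed to 848 CPM in shRNA replicate 4 and at most 141 CPM in the other shRNA samples, pericyte and smooth muscle markers are given above, and fibroblast markers, a second source of Pdgfra, summed to 44.1 CPM against at most 23.3 CPM. These lists had medians of 0.46, 0.36 and 0.51 with 0 genes called and 0, 1 and 0 at an unadjusted p under 0.05 (edgeR), and DESeq2 called 42 genes over all lists together where edgeR called 8. Without shRNA replicate 4 the median of the astrocyte markers was 0.43, and the medians of the endothelial, pericyte and fibroblast markers were negative, at -0.95, -0.79 and -0.30. In that fit 0 of 10 endothelial, 1 of 9 pericyte and 2 of 7 fibroblast markers had a positive log2 fold change. An unadjusted p under 0.05 was found in 5, 5 and 0 of them (edgeR), and in 3765 of 14515 genes tested. Microglia markers had a median of 0.21, 0 called and 3 at an unadjusted p under 0.05 (edgeR). CA3 and CA2 pyramidal neuron markers had a median of 0.66 with 2 of 12 called higher, Grik4 and Cpne4, and their sums did not overlap between the groups (1248 to 2207 CPM with shNT, 2283 to 2751 CPM with the shRNA). DG granule cell markers had a median of 0.66 with 0 of 8 called and 4 at an unadjusted p under 0.05 (edgeR), and of 9 markers of other interneurons 2 were called higher, Reln and Cnr1, with a list median of 0.56. All 11 PV IN markers had a negative log2 fold change, with a median of -0.32, 0 called and 2 at an unadjusted p under 0.05 (edgeR), and Pvalb, at 997 ± 287 CPM (n = 5) and 526 ± 163 CPM (n = 4), had -0.92 (edgeR FDR 0.0678). The PV IN markers were lowest in shRNA replicate 4, at 2941 CPM against 5049 to 7137 CPM in the other shRNA samples, and without it their median was -0.12 with 11 of 11 still negative. Without it the medians were 0.62 for the pyramidal neurons, where Grik4 alone was still called, 0.44 for the granule cells, 0.44 for the other interneurons, where 0 were called and 2 had an unadjusted p under 0.05 (edgeR), and 0.18 for microglia.

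**Figure D5:**
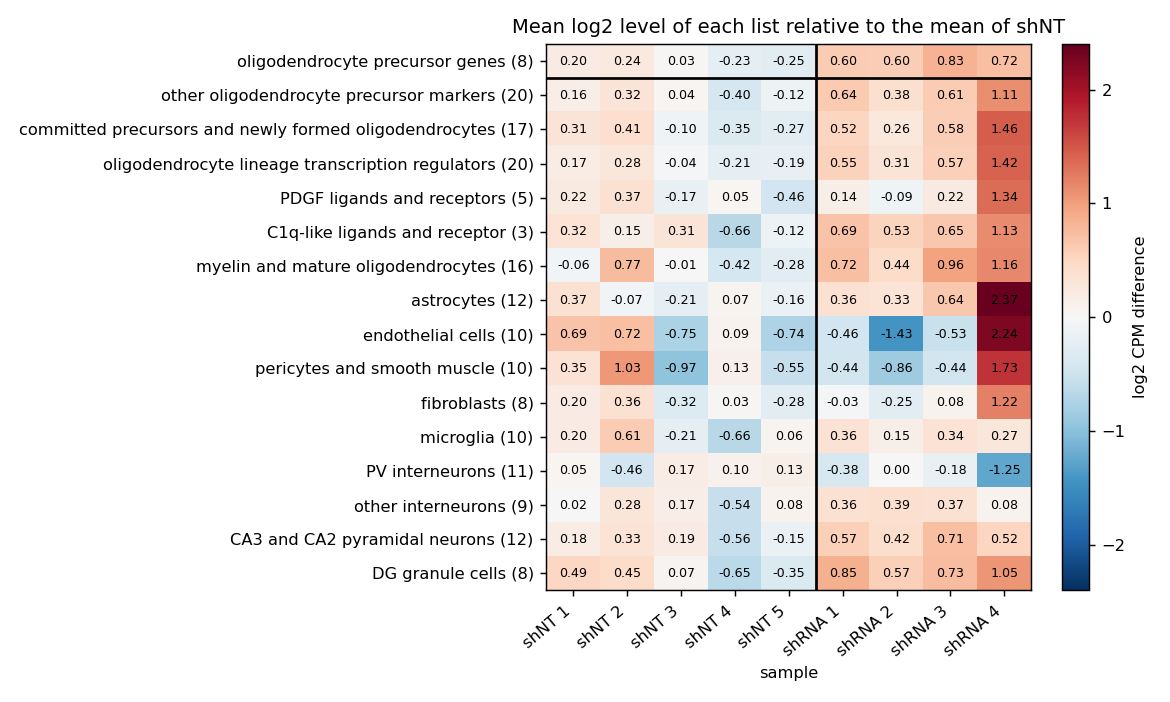
Mean log2 level of each marker list (rows, number of genes tested in brackets) in each of the 9 samples (columns) as a difference from the shNT mean, in log2 CPM. The 8 members lie between 0.60 and 0.83 in all 4 shRNA samples, while the lists of other precursor markers, committed cells, lineage regulators, myelin, astrocytes, endothelial cells and pericytes all have their highest level in shRNA replicate 4.

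Over the 9 samples the mean level of the members had Pearson's r of 0.901 with the myelin list, 0.918 with the pyramidal neuron list, 0.925 with the DG granule cell list, 0.624 with the astrocyte list, 0.152 with the endothelial list and -0.596 with the PV IN list. Without shRNA replicate 4 these were 0.889, 0.918, 0.914, 0.805, -0.242 and -0.574. For the other lists of the lineage, r was 0.9 with the further precursor markers, 0.822 with the regulators and 0.818 with the committed cells. Without shRNA replicate 4 these rose to 0.94, 0.965 and 0.905. The members' mean level and the share of reads outside exons had r = 0.562, and 0.461 without shRNA replicate 4. With that share in the model (chosen after seeing the data), the median log2 fold change of the members was 0.67 and 0 were called, with 6 at an unadjusted p under 0.05 (edgeR). Over all genes tested in that fit the median was 0.07, 0 were called, and 4479 of 15069 had such a p. The lists share libraries, depth and the difference between the groups, and the part of these cell types, of exon length or of reads outside exons in the members' difference was not tested.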

How the data were processed

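The authors sequenced ribosome-associated RNA (SMARTer v4 libraries), used STAR against mm9 and HTSeq 0.6.0 without strand, and deposited raw counts for each of the 9 samples. The annotation release is not given in the sources used here. Names, positions and exon lengths came from GENCODE vM1 on the same build, which named 37205 of the 37620 identifiers. Rows that name no gene were left out of library sizes, of which reads outside exons were 9.76% to 27.2% of uniquely aligned reads in a sample.

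Genes reaching 1 CPM in any sample were kept (15069, with 22551 removed) and scaled by TMM. The quasi-likelihood test of edgeR 4.0.16 (R 4.3.3) then compared the groups with no covariate. Calls needed an FDR under 0.05 and at least 1.5-fold. Levels are TMM-scaled CPM, and a prior count of 2 was added for log2 levels. limma 3.58.1 (voom with quality weights for the samples) and DESeq2 1.42.0 served as alternatives. Standard errors were taken from the fold change and its test statistic. The method was tested on simulated counts. Nothing in the labels ties replicate numbers of the groups to each other.

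The members, the lists and the rule for named genes (the members, called genes of each list, up to 3 of its most abundant others, and the genes most like the members) were chosen with earlier results of these data known. Lists covered precursors, committed cells, regulators, PDGF and C1q-like genes, myelin, astrocytes, endothelial cells, pericytes, fibroblasts, microglia, PV INs, other interneurons, pyramidal neurons and granule cells. Genes named beyond that rule were chosen after their values were seen, and 1 gene that the rule names is not reported here. Alternatives were other scalings, filters and tests, blocks, 1 name set and left-out samples, and, chosen after seeing the data, exon length offsets, reads outside exons as a covariate and a pair of samples left out.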

Additional observations from a re-analysis of the deposited data

Results flagged for a closer look

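Cspg4 in shRNA replicate 4, at 15.6 CPM, lay far above the other 3 shRNA samples, which ran from 6.64 to 8.06 CPM. It was the only value flagged in a search of 16 groups of values (8 genes in each group of samples), where chance flags about 5% of groups. Without that sample the log2 fold change of Cspg4 was 0.63 in place of 1.01.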

How the results depend on the processing

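Over 25 alternatives Pdgfra, Cspg4, Olig1, Olig2, Sox10 and Gpr17 kept a positive log2 fold change and C1ql1 a negative one. Lhfpl3 turned positive in name set 31 (0.038), with exon length offsets (0.24) and with reads outside exons in the model (0.085). The members called were 3 as reported. They were 0 with library size only, upper quartile scaling, filterByExpr, name set 31 only, exon length offsets and the covariate, 5 with DESeq2, and 6 with the likelihood ratio test and limma voom, and between 0 and 4 when single samples were dropped. In each fit with 0 called, at least 4 members had an unadjusted p under 0.05 (edgeR). Over all genes tested such a p was found in 1493 of 14475 (name set 31) up to 5360 of 15069 (upper quartile) in these fits. Genes called on the other lists were 8 as reported. They were 0 with library size only, upper quartile scaling, filterByExpr, name set 31 only, exon length offsets and the covariate, 17 with no filter, 15 with 1 CPM in at least 4 samples, 42 with DESeq2, 51 with the likelihood ratio test, 71 with limma voom, 13 with the name set as a block, 30 without shNT replicate 2 and shRNA replicate 4, and between 0 and 29 when single samples were dropped. The median log2 fold change of the members was 0.54 in name set 31 and between 0.76 and 1.06 when single samples were dropped. The cause of these changes was not tested. Over all genes tested, 262 were called higher and 2 lower, against 1519 and 844 with DESeq2, 1688 and 542 with the likelihood ratio test, 2301 and 618 with limma voom, 501 and 14 with no filter, 29 and 0 with the replicate block, 678 and 2 without shNT replicate 2 and shRNA replicate 4, the highest of each group outside exons, and 0 and 0 in the 6 settings named above with 0 calls. When single samples were dropped, between 0 and 1007 were called higher. The lowest member count, 61 reads, limits the precision of Gpr17 in shNT replicate 4.

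With the replicate number as a block, 0 members and 0 genes of the other lists were called, with 6 members at an unadjusted p under 0.05 (edgeR). Over all genes tested in that fit, 1882 of 15069 had such a p and 29 were called higher. Samples share only a number: the correlations of their deviations from the group means were -0.267, -0.641, 0.486 and -0.181 for numbers 1 to 4, and shNT replicate 3 correlated more with shRNA replicate 2 (0.512) than with its own number.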
